A study of Mus musculus with 6 samples.

Results

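The neuromuscular junction is the synapse at which a motor nerve drives a skeletal muscle fibre, and 10 of its genes were followed in the embryonic mouse tongue: Chrna1, Chrnb1, Chrnd, Chrne, Chrng, Musk, Rapsn, Dok7, Lrp4 and Ache. They were taken by name as genes of this synapse. The source was the authors' deposited table of 15648 genes, which lists 9 of the 10, all but Chrne. RNA came from the intermolar eminence, the raised dorsal part of the tongue between the molars, at stage E17.5, from C57BL/6 mice in 3 wild-type (WT) libraries and 3 libraries labelled Fst-KO. Fst encodes follistatin, a secreted binder of activins, myostatin and some bone morphogenetic proteins. The mutant allele, any Cre or promoter behind it, and whether each library holds 1 animal are, in the sources used here, not given.

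The authors' deposited table summarises each group by its mean, so the means below come without a standard deviation, the groups cannot be checked for overlap, and the depth of each library is unknown. Its p-values measure the spread of 6 libraries, possibly a technical one, since nothing says that they came from separate animals. The means are in a normalised unit whose scale is not given. The targeted gene went against its label: the authors' deposited table gives Fst a mean of 33.2 in WT and 69.7 in the libraries labelled Fst-KO, with a false discovery rate (FDR) of 0.0158, so directions below are those of the labels. The labels call the tissue tongue epithelium, yet muscle genes were abundant in it: divided by kilobase (kb) of exon, the WT mean was 3204 for the skeletal actin Acta1, 1655 for the oral keratin Krt13 and 699.9 for the basal keratin Krt5 (from the authors' deposited table). The median ratio of all genes, labelled Fst-KO over WT, was 1.14 (0.18 on the log2 scale), 81.0% of the genes had ratios greater than 1, and ratios are therefore also given relative to that median.

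As background, the motor nerve releases acetylcholine onto a pentameric ion channel in the muscle membrane. That receptor is built from alpha, beta and delta subunits with a gamma subunit (Chrng) in the fetus, which an epsilon subunit (Chrne) replaces in the adult. Agrin from the nerve binds the receptor Lrp4, which activates the kinase Musk with the help of the adaptor Dok7, and the scaffold protein rapsyn (Rapsn) then gathers receptors under the nerve ending. Acetylcholinesterase (Ache) clears the transmitter from the cleft.

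The 5 subunit genes are relatives, which the coding stretch of their Cys loop shows. This is the 15-codon loop, closed by a disulfide bond, that names the receptor family. Each stretch was read from the principal GENCODE M21 transcript, and capitals mark the codons of both cysteines:
Chrna1: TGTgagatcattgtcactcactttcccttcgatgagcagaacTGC
Chrnb1: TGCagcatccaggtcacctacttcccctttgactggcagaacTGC
Chrnd: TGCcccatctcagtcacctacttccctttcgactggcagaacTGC
Chrng: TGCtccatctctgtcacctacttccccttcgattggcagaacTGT
Chrne: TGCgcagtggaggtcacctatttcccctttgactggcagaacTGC
Over these 45 bases the 10 pairs of subunits were 64.4% to 88.9% identical, with Chrnd and Chrng closest and Chrna1 and Chrne farthest apart. Chrng and Chrne, the fetal and adult alternatives, were 75.6% identical there. Over whole principal transcripts, the longest run of bases shared exactly by any pair was 24, between Chrnb1 and Chrne. Chrng and Chrne shared no run longer than 15 bases.

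By the gene-specific analysis behind the authors' deposited table, no member reached an FDR under 0.05, which 0.0959% of all genes did. At an unadjusted p under 0.05, 1 of the 9 listed members differed, which was Ache and was lower. That threshold was passed by 15.6% of all genes, of which higher genes made up 13.4% of the table and lower genes 2.17%. The members' share is thus near the background. Their FDRs ran from 0.235 to 0.692. Of the 9 ratios, 5 lay above 1 and 4 below, beside the 81.0% of all genes above 1, and 2 exceeded the median of all genes. The median ratio of the members was 1.07, and 0.941 after division by that of all genes. In a bulk tissue, fewer cells of a type cannot be told apart from less RNA per cell.

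**Figure D1:**
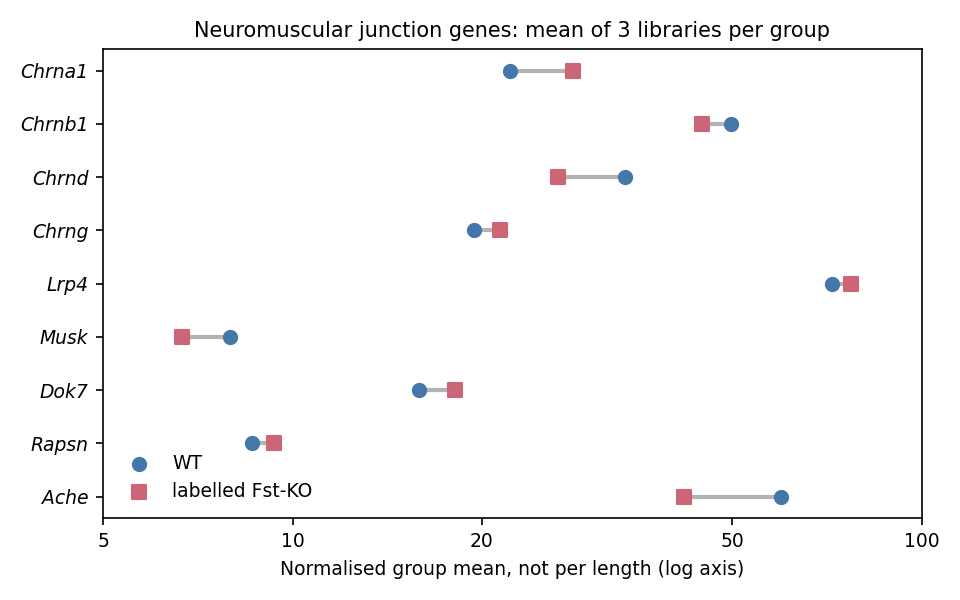
Normalised mean of each neuromuscular junction gene in the authors' deposited table, on a log axis, not divided by gene length. Circles are WT and squares are the libraries labelled Fst-KO, each the mean of 3 libraries, with no error available. The widest gap toward WT is that of Ache (59.8 against 41.9), and Chrna1 has the widest gap in the other direction (22.2 against 27.9).

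Among the receptor subunits, 2 of the 4 listed had ratios above 1 and 2 below. Chrna1, the alpha subunit that carries most of the acetylcholine binding site, had a mean of 22.2 in WT and 27.9 in the libraries labelled Fst-KO in the authors' deposited table. Its ratio of 1.26 was the highest of the members in the direction of the labels (P = 0.164, FDR = 0.387; the authors' deposited table), and would be 0.795, the lowest, with the labels exchanged. It is encoded on the minus strand of chromosome 2, from 73563215 to 73580338 (mm10).

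Chrnd, the delta subunit, was on the other side. In the authors' deposited table its mean was 33.7 in WT and 26.4 in the libraries labelled Fst-KO (ratio 0.784, P = 0.0846, FDR = 0.335). Chrng, which lies next to it on chromosome 1 (Chrnd from 87190607 to 87200070 and Chrng from 87204657 to 87212694, both on the plus strand), had means of 19.4 in WT and 21.4 in the other group. The ratio of Chrng was 1.10 (P = 0.471; the authors' deposited table), which is 0.969 relative to the median of all genes. Chrnb1, the beta subunit, had means of 49.8 and 44.7 (ratio 0.898, P = 0.544; the authors' deposited table). The test was passed by none of these 4 differences, and the missing values per library leave the size of their error unknown.

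Quotients between subunits do not depend on any scaling applied to a whole group. The mean of Chrna1 was 0.658 times that of Chrnd in WT and 1.06 times in the libraries labelled Fst-KO, so this quotient differed 1.61-fold between the groups. Chrna1 and Chrnd have the highest and the lowest ratio of the listed subunits, so no other pair could differ more. Chrna1 against Chrnb1 gave 0.445 in WT and 0.624 in the other group. Chrnb1 gave 1.48 and 1.69 against Chrnd, and 2.56 and 2.09 against Chrng. For Chrnd against Chrng the quotient was 1.73 in WT and 1.23 in the other group. The Chrna1 to Chrng quotient was closer, at 1.14 and 1.30. No test of these quotients was possible without values per library.

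Levels of different genes can be compared only per length, because the deposited means rose with gene length. When genes were ranked by exonic length, the median WT mean was 8.65 in the lowest decile and 35.0 in the highest. Per kb of exon, Chrnb1 was highest of the subunits with 23.1 in WT and 20.8 in the libraries labelled Fst-KO. Chrnd followed with 11.0 and 8.64, then Chrng with 6.06 and 6.67 and Chrna1 with 5.06 and 6.36. Chrnb1 thus stood first in both groups on that scale. The place of Chrna1 depended on the length used: per kb of coding sequence it had 16.2 in WT and 20.4 in the libraries labelled Fst-KO, above Chrng with 12.5 and 13.7, and in the latter group also above Chrnd with 16.9. Of the summed exon-scaled level of the 4 subunits, Chrna1 made up 11.2% in WT and 15.0% in the other group, and Chrnd 24.4% and 20.4%.

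**Figure D2:**
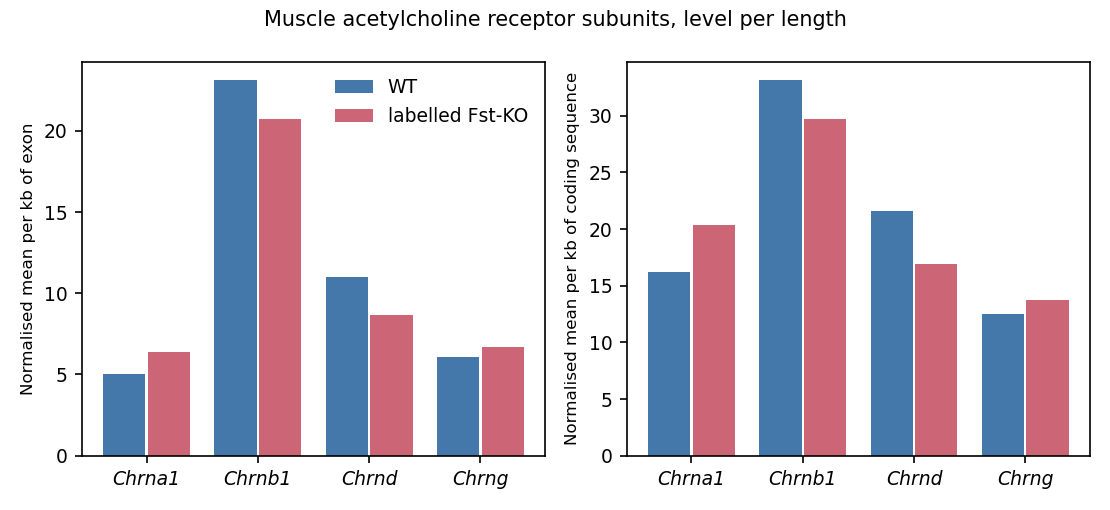
Normalised group mean of the 4 listed receptor subunits divided by kb of exon (left) and by kb of coding sequence (right). Bars are means of 3 libraries with no error available. Chrnb1 is highest on both scales and in both groups, while the place of Chrna1 changes with the length used.

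Chrne, the adult epsilon subunit, is not listed in the authors' deposited table and has no value here. The lowest geometric mean of both groups among the listed genes was 1.01, so genes low in both groups are missing from it, but which reason applies to Chrne was not tested. It is encoded on the minus strand of chromosome 11, from 70614883 to 70619216, and shares 70615848 to 70616890 with 4930544D05Rik on the opposite strand. The planned quotient of Chrng over Chrne could not be computed. The fetal subunit was present in both groups, at the means given above.

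The 4 genes that gather receptors had ratios from 0.837 to 1.14. Lrp4, the agrin receptor, had a mean of 72.0 in WT and 77.1 in the libraries labelled Fst-KO (ratio 1.07, P = 0.520; the authors' deposited table). Epithelium and mesenchyme can also express Lrp4, and how much of its level came from each was not tested. Musk, the kinase, had means of 7.97 and 6.67 (ratio 0.837, P = 0.462; the authors' deposited table). It was the lowest member per kb of exon, at 2.32 in WT and 1.94 in the other group.

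Dok7, the cytoplasmic activator of Musk, had means of 15.9 in WT and 18.1 in the libraries labelled Fst-KO in the authors' deposited table. Its ratio was 1.14 (P = 0.225, FDR = 0.434; the authors' deposited table), at the median of all genes. Rapsn had means of 8.63 and 9.35 (ratio 1.08, P = 0.548; the authors' deposited table). Its last part, from 91044092 to 91045729 on chromosome 2, overlaps the antisense transcript Gm13778, and strandedness is, in the sources used here, not given. Lrp4, Chrng and Rapsn had ratios above 1 as deposited and below 1 relative to the median of all genes.

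In the direction of the labels, Ache stood lowest of the members. In the authors' deposited table its mean was 59.8 in WT and 41.9 in the libraries labelled Fst-KO (ratio 0.701, P = 0.00331, FDR = 0.235). By p-value it ranked 218 of the 15648 genes, and 2.28% of genes had a lower ratio. With the labels exchanged its ratio would be 1.43, the highest of the members. Relative to the median of all genes its ratio was 0.617. Per kb of exon it was the second most abundant member in both groups, with 20.9 in WT and 14.6 in the other group. It is encoded on the plus strand of chromosome 5, from 137287519 to 137294466, and its start overlaps the antisense transcript Gm42456 up to 137288662.

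Promoter sequences are shown for Chrna1 and Ache, the members with the highest and the lowest ratio, and for Chrng and Chrne, the fetal and adult subunits. The RefSeq table (GRCm38.p6) held windows for 7 of the 10 members, and Chrnd, Rapsn and Lrp4 have none in it. The 250 bases before the annotated start were searched for E-boxes, the letters CANNTG bound by myogenic factors, among them CAGCTG and CAGGTG, and for the N-box CCGGAA, a site known for synaptic genes, on both strands. Each sequence runs 5′ to 3′ on the gene's strand, and capitals mark the matches:
Chrna1, chr2:73580339-73580588, minus strand: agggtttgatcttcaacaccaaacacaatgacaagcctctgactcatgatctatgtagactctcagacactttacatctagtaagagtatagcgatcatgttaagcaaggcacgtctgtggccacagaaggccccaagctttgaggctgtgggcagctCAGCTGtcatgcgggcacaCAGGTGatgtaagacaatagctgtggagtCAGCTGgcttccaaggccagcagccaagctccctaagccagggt
Chrng, chr1:87205561-87205810, plus strand: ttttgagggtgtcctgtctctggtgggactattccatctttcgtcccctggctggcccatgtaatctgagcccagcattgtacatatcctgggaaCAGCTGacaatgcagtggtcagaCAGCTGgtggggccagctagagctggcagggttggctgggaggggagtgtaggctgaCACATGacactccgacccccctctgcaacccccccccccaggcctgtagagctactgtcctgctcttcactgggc
Chrne, chr11:70619195-70619444, minus strand: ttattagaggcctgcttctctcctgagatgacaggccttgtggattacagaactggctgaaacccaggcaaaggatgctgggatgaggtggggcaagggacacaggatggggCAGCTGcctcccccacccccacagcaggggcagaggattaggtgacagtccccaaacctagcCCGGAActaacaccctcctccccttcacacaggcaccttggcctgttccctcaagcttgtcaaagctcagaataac
Ache, chr5:137288004-137288253, plus strand: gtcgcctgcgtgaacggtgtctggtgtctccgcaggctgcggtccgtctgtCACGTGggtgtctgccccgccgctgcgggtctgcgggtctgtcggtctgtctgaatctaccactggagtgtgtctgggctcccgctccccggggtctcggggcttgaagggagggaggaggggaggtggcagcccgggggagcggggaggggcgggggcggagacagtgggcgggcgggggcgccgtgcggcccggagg
The Chrna1 window held 3 E-boxes, 2 of them CAGCTG and 1 CAGGTG, and the one nearest the start lay 44 bases before it. Chrng also had 3, of which 2 were CAGCTG. Chrne had 1 CAGCTG and 1 N-box, the single N-box among the members' windows. In Ache the 1 match to CANNTG was neither CAGCTG nor CAGGTG, and the windows of Ache and Chrng lie inside the spans that GENCODE M21 gives for these genes. The Chrne window shares 22 bases with its gene's span.

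Over all 8 windows of members, 7 held CANNTG, 4 held CAGCTG, 2 held CAGGTG and 1 held CCGGAA. Of all 32851 windows of that length in the table, 66.2% held CANNTG, 13.0% held CAGCTG, 17.2% held CAGGTG and 12.03% held CCGGAA. Windows of Musk and Chrnb1, not printed, each had 3 matches to CANNTG. These counts describe letters in short windows, and enhancers farther away were not searched.

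Other genes that handle acetylcholine stood on different sides. Bche, the related butyrylcholinesterase, had a mean of 31.2 in WT and 21.7 in the libraries labelled Fst-KO (ratio 0.694, P = 0.00276, FDR = 0.233; the authors' deposited table). Colq, the collagen tail that anchors acetylcholinesterase in the synaptic cleft, had means of 19.6 and 14.8 (ratio 0.754, P = 0.0900; the authors' deposited table). Ache, Bche and Colq thus all had ratios below 1, where 81.0% of all genes had ratios above 1, and none of the 3 passed the FDR. These 3 were not a planned group. Bche and Colq come from a list of synaptic basal lamina and matrix genes in which 11 of the 13 listed had ratios above 1. Slc5a7, the choline transporter of cholinergic nerve endings, had low means of 0.763 in WT and 1.63 in the other group (ratio 2.14, P = 0.00101, FDR = 0.187; the authors' deposited table). Its WT mean lies under 1.01, the lowest geometric mean of both groups among listed genes, so it may be listed only through the other group. Chat, which makes acetylcholine, is not listed. Ache and Bche are both expressed outside the synapse as well, including in nerve and other cells.

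**Figure D3:**
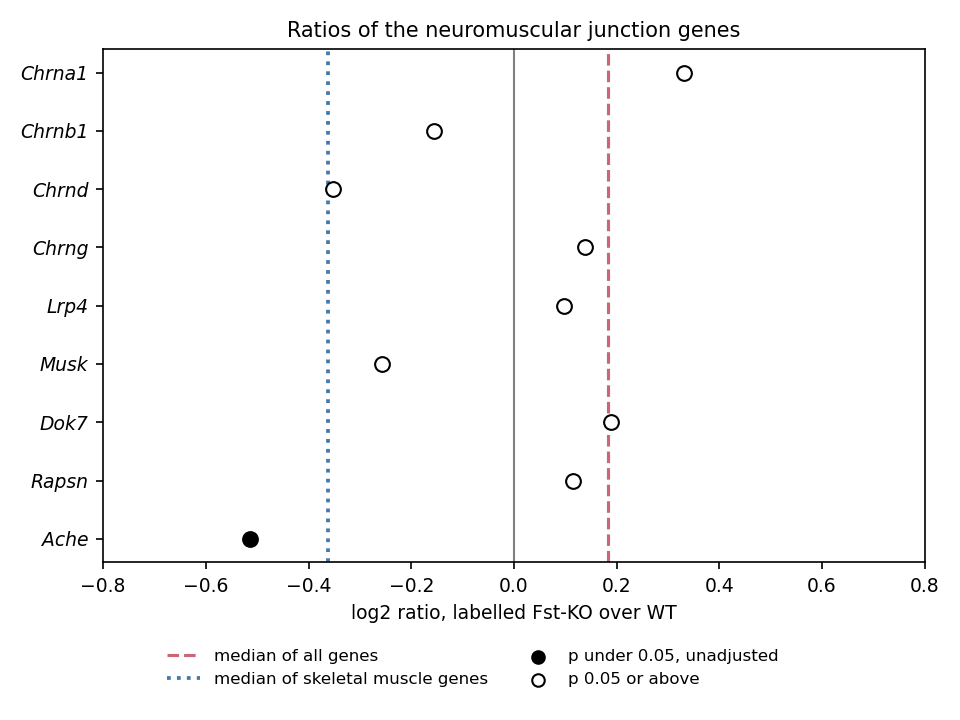
Log2 ratio of each neuromuscular junction gene, labelled Fst-KO over WT, in the authors' deposited table. The filled point, Ache, has an unadjusted p under 0.05, and open points do not. The dashed line is the median of all genes (0.18) and the dotted line the median of 25 skeletal muscle genes, which 8 of the 9 members and 96.1% of all genes exceed.

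Because junction genes are transcribed in muscle fibres, their ratios were set beside those of muscle. The 25 listed skeletal muscle genes had a median ratio of 0.778, or 0.743 without the 4 slow-fibre genes Tnnt1, Tnni1, Tnnc1 and Myh7. An unadjusted p under 0.05 was found for 4 on the higher side, which were these same slow-fibre genes, and for 5 on the lower side. Of all genes, 13.4% were higher and 2.17% lower at that threshold. Of the members, 8 of 9 had a ratio above that muscle median, as did 96.1% of all genes, so the count is no more than the background. Ache lay below it. Relative to it, the ratio of Chrna1 was 1.62, that of Dok7 1.47, that of Chrng 1.41 and that of Ache 0.900. Chrnd stood at 1.01 on that scale, and outside the members Bche stood at 0.891 and Colq at 0.969. The muscle median was itself 0.685 of the all-gene median. Relative to the all-gene median, Chrna1 stood at 1.11, Dok7 at 1.00, Chrng at 0.969 and Ache at 0.617. The summed mean of the muscle list was 18450 in WT and 13819 in the libraries labelled Fst-KO, and its part in the members' values was not tested.

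The muscle list itself was not uniform. In the authors' deposited table the slow myosin Myh7 rose from a mean of 4.67 in WT to 132 (FDR 0.00907) and the slow troponin Tnnc1 from 13.7 to 52.7 (FDR 0.0219). Casq1, the calcium store protein of fast fibres, had a mean of 273 in WT and 147 in the other group (ratio 0.538, FDR = 0.285; the authors' deposited table). For Tnnt1, a slow troponin, the authors' deposited table gives a ratio of 2.03. The members' part in this difference between fibre types was not tested.

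Of 30 genes of the agrin pathway and the postsynaptic scaffold, all were listed, with a median ratio of 1.04. At an unadjusted p under 0.05, 2 of the 30 were higher and 3 lower, beside 13.4% and 2.17% of all genes. None of the 30 passed the FDR. Agrn, for agrin itself, had means of 270 in WT and 335 in the libraries labelled Fst-KO (ratio 1.24, FDR = 0.314; the authors' deposited table). Epithelia and vessels also make agrin. Src, a kinase that phosphorylates the receptor complex, had means of 32.4 and 43.2 (ratio 1.34, FDR = 0.285; the authors' deposited table).

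The 3 lower ones were Erbb4, Scn4a and Nes. Erbb4, a neuregulin receptor, had means of 4.42 in WT and 2.72 in the other group (ratio 0.616, FDR = 0.311; the authors' deposited table). Scn4a, the muscle sodium channel concentrated near the synapse, had means of 18.8 and 13.4 (ratio 0.711, FDR = 0.304; the authors' deposited table). Nes, for the intermediate filament nestin, had means of 268 and 197 (ratio 0.734, FDR = 0.297; the authors' deposited table). Utrn, for utrophin at the synaptic membrane, had means of 85.9 and 84.1 (ratio 0.979, P = 0.760; the authors' deposited table). The neuregulin gene Nrg1 was low in both groups, at 0.973 in WT and 1.38 in the other group (P = 0.126; the authors' deposited table).

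Among 16 genes of the synaptic basal lamina and matrix, 13 were listed and their median ratio was 1.096. The basement membrane collagens Col4a6 and Col4a5 stood at 1.58 (FDR = 0.279) and 1.48 (FDR = 0.302; the authors' deposited table). At an unadjusted p under 0.05 they were the 2 higher genes and Bche the 1 lower gene, beside 13.4% and 2.17% of all genes. Col4a5 and Col4a6 are also made under epithelium, and the 7 basal epithelium markers had a median ratio of 1.28. Their part in the values of the collagens was not tested. All 8 genes of the congenital myasthenia list, most of which act in protein glycosylation or transport, had ratios above 1, as did 81.0% of all genes. Their median of 1.13 was 0.996 of the all-gene median, and none had an unadjusted p under 0.05. The genes of the congenital myasthenia list with the highest means, not divided by length, were Gfpt1 and Tor1aip1, which stood at 1.00 and 1.17 (the authors' deposited table).

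Of 16 nicotinic and muscarinic receptor genes beyond the muscle subunits, 5 were listed, with a median ratio of 1.25. The neuronal subunit Chrna4 had means of 4.93 in WT and 3.71 in the libraries labelled Fst-KO, and the muscarinic receptor Chrm3 had 3.89 and 4.86 in the authors' deposited table. Chrm2 was the 1 gene of these 5 at an unadjusted p under 0.05, which 15.6% of all genes had. Its means were 1.06 and 1.79 (FDR = 0.311; the authors' deposited table), and it was picked out after its value was seen.

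Genes that respond to the activity or denervation of muscle, as Chrna1 and Chrng are known to do, had a median ratio of 1.12 over 13 listed genes. At an unadjusted p under 0.05, 2 of the 13 were higher and 0 lower, beside 13.4% and 2.17% of all genes. None of the 13 passed the FDR. Runx1, a transcription factor induced by denervation, had means of 28.4 in WT and 39.9 in the libraries labelled Fst-KO (ratio 1.40, P = 0.00525, FDR = 0.279; the authors' deposited table). Sirt1, a deacetylase, had means of 20.7 and 25.6 (ratio 1.24, FDR = 0.311; the authors' deposited table). Myog, for the myogenic factor that binds E-boxes of receptor promoters, had means of 141 and 116 (ratio 0.823, P = 0.363; the authors' deposited table). Myod1, a related factor, had means of 22.3 and 28.4 (ratio 1.27, P = 0.107; the authors' deposited table). Both were picked out after their values were seen, and cells other than muscle also express Runx1 and Sirt1.

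**Figure D4:**
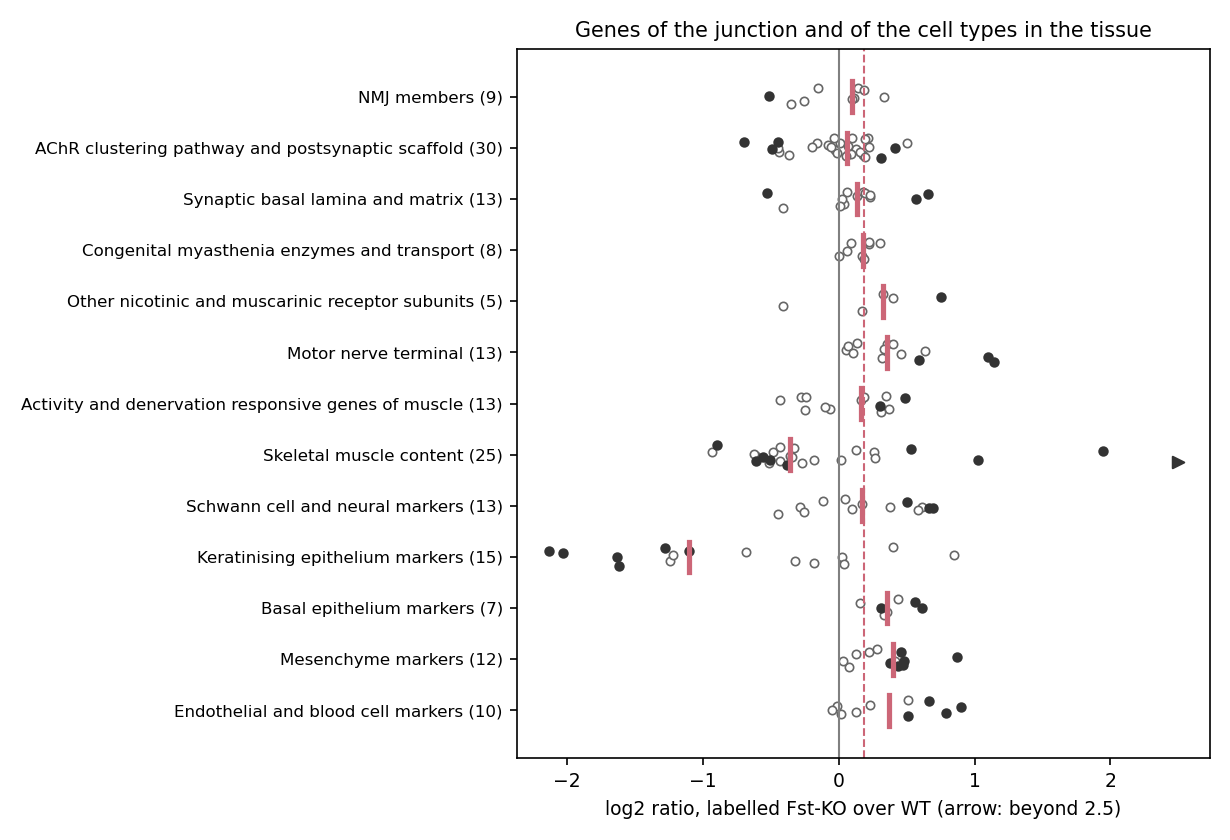
Log2 ratio, labelled Fst-KO over WT, of every listed gene in 13 lists, with the number of listed genes in brackets. Filled points have an unadjusted p under 0.05, thick bars are list medians, and the dashed line is the median of all genes. The median of the junction genes (0.097) lies just left of that line (0.18) and the skeletal muscle median below 0, and the arrow is Myh7, beyond the axis.

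Genes of the nerve side were mostly low and listed in part. Of 19 motor nerve terminal genes 13 were listed, and all 13 had ratios above 1, as did 81.0% of all genes. Their median was 1.28, and 3 were higher at an unadjusted p under 0.05, beside 13.4% of all genes. Their summed mean was 116 in WT and 134 in the libraries labelled Fst-KO, of which Vamp2 alone gave 77.2 and 84.6. Besides Slc5a7 the 3 higher genes were Nefm, a neurofilament gene, with means of 0.971 and 2.15, and Stx1a, for a vesicle release protein, with 5.61 and 8.45 in the authors' deposited table. The WT means of Slc5a7 and Nefm lie under 1.01, the lowest geometric mean of both groups among listed genes. Both may be listed only through their higher mean in the other group, so the counts of higher genes and of ratios above 1 carry no weight for them. The nerve genes Chat, Slc18a3, Snap25, Syt2, Nefh and Mnx1 are not listed. As background, the cell bodies of motor neurons, where most of their mRNA is held, lie outside the tongue.

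Markers of other cells also had ratios away from 1 in the same comparison. The 13 listed Schwann cell and neural markers had a median of 1.13, or 0.993 of the all-gene median, with 9 ratios above 1 and 4 below. Of the 13, 3 were higher at an unadjusted p under 0.05, beside 13.4% of all genes. Among them were Cdh19 and Sox10, for which the authors' deposited table gives ratios of 1.62 and 1.59. The list's summed mean was 307 in WT and 321 in the other group. All 12 mesenchyme markers had ratios above 1, beside 81.0% of all genes, with a median of 1.32 and a summed mean of 4844 in WT and 6476 in the other group. The 15 genes listed as keratinising epithelium markers, of which Krt4 and Krt13 are not particular to keratinising cells, had a median of 0.466. Of their ratios 4 lay above 1 and 11 below. Of the 15, 6 were lower at an unadjusted p under 0.05, beside 2.17% of all genes. Their summed mean was 6168 in WT and 7299 in the other group. Most of that sum came from Krt4, with 1292 and 2330, and Krt13, with 2737 and 3616, both with ratios above 1. The higher sum thus does not describe the keratinising markers, most of which had lower means. Of the 10 endothelial and blood cell markers, the 4 endothelial ones had ratios from 0.967 to 1.09 and the 6 leukocyte and globin ones from 1.18 to 1.87. The summed mean of these 10 was 449 in WT and 646 in the other group, and that of the 7 basal epithelium markers was 3908 and 5542. Their part in the values of the junction genes was not tested.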

How the data were processed

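RNA-seq of 3 WT and 3 Fst-KO libraries was read from the authors' deposited table, the 1 file used. The submitters' processing notes name BWA 0.7.12, Partek and mm10, and per the design text the gene-specific analysis of Partek gave the test. How reads were counted, annotated and normalised, and strandedness, are, in the sources used here, not given. BWA aligns without splitting reads at introns. Per the file headers the authors deposited p-values with an FDR, a ratio of mutant over WT, and a normalised signal as a least-squares mean per group. A signed fold score by the authors was not used. The column headed as totals equalled 3 times the sum of both means for all 15648 genes, and a Benjamini-Hochberg adjustment of p gave the FDR (relative tolerance 1e-06).

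The comparison was FDR under 0.05 over all genes, with an unadjusted p under 0.05 beside it. Without values per library no refit, interval or exact test was possible, and depth per library is unknown. The column headed mutant was read as Fst-KO, the only mutant here. Relative ratios were divided by the median ratio of all genes or of the muscle list. Exonic lengths were unions of exons of protein-coding transcripts in GENCODE M21 on GRCm38, the assembly of mm10. The re-adjustment was tested on simulated data. Python 3.11.15, pandas 2.3.3 and NumPy 2.4.6 were used. Members and lists were chosen with earlier results of these data known. Named genes were all members, Fst, Agrn, Colq, Utrn, Nrg1 and Chat, and from each list those up to 4 genes that differed most among genes at an unadjusted p under 0.05, or, with fewer than 2 such genes, the 2 of highest mean. Genes of the cell type lists are mostly given as counts, and a gene that the rule would name is not reported here. Alternatives were a pseudocount of 1 or 10, other scalings and other thresholds.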

Additional observations from a re-analysis of the deposited data

How the results depend on the processing

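At an unadjusted p under 0.05 the count of members that differed was 1 instead of 0. After adjustment over the more abundant genes (mean no lower than the median) it was 0 again, among the 7 members with such a mean. Musk and Rapsn were left out there. The median log2 ratio of the members, 0.097 as deposited, was 0.054 with a pseudocount of 10, -0.087 after division by the all-gene median and -0.028 with group sums made equal without the 157 most abundant genes. After division by the all-gene median the log2 ratio of Chrng was -0.045, that of Rapsn -0.069 and that of Lrp4 -0.087, and with equal sums those of Rapsn and Lrp4 were -0.0099 and -0.028, where all 3 were above 0 as deposited. The alternatives' own scaling produces these changes of sign. The other 6 members kept their direction under both pseudocounts and both scalings, which was fixed in advance for most of them. A pseudocount added to both means cannot change a sign. Both scalings lower every ratio, so the 4 members with ratios below 1 could not reverse. Chrna1 and Dok7 could have, and their log2 ratios after division by the all-gene median were 0.148 and 0.0057. The count of members above the muscle median was 8 with and without slow-fibre genes, beside 96.1% and 96.8% of all genes. The direction of each subunit's share was the same without division by length and per kb of coding sequence, the latter chosen after seeing the data. For Chrna1 and Chrnd, which have the highest and the lowest ratio of the listed subunits, no choice of length could have changed it. No paired analysis was possible because the table holds group means with no value per library, and for the same reason leaving out single libraries was not run. Depth per library is unknown, so the precision of low genes such as Musk and Rapsn is too.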
